A study of Mus musculus with 2 samples.

Results

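Ccl2, Ccl7, Ccl8 and Ccl12, the ligands of the chemokine receptor CCR2 in the mouse, and the receptor gene Ccr2 were described across every immune population of 2 libraries from melanoma tumours. The 5 genes were taken by symbol, and all 5 were among the 12584 genes of the count matrix. CCR2 is a G protein-coupled receptor that lets classical monocytes leave the bone marrow and enter inflamed tissue and tumours along gradients of its ligands. CCL2 (MCP-1) is its best known ligand. CCL7 (MCP-3) also binds other CC chemokine receptors, CCL12 (MCP-5) is found in mice and binds CCR2, and CCL8 (MCP-2) in the mouse is also a ligand of CCR8. Monocytes usually lose the receptor as they mature into macrophages, and macrophages are themselves a source of the ligands.

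CD45+ live cells, that is leukocytes, were sorted from subcutaneous tumours of the mouse melanoma line YUMM3.3 (Braf V600E, Cdkn2a -/-) in C57BL/6 mice and profiled by droplet 3′ single-cell RNA sequencing. The line had never met targeted therapy in the NTT group, and a derivative of it resistant to targeted therapy, kept in culture with the BRAF inhibitor dabrafenib, formed the RTT group. The series record gives day 12 after injection, whereas the methods of the study name another day, after a transfer of T cells, for experiments of this kind. The labels name no treatment of these mice. Each group held 1 library, made from a number of tumours that is not known here, and the paper pooled tumours for other libraries of this kind. Line, mouse, sort and library cannot be told apart, so no test was made. Every interval below is a 95% interval that covers counting error only.

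There were 2975 NTT cells with 19634099 unique molecular identifiers (UMIs, counted molecules) and 4840 RTT cells with 44712071. The median cell had 5398 UMIs in NTT and 8336 in RTT, and 7 cell barcodes occurred in both libraries. Levels are in CPM, that is UMIs of a gene scaled to the same total of UMIs in every group of cells. Shares of cells with a UMI were taken after each cell had been thinned to 2000 UMIs, which left out 107 NTT and 63 RTT shallower cells. Population names are those of the authors. TAM stands for tumour-associated macrophage and cDC for conventional dendritic cell. Only 17 NTT cells were named TAM_C1q and none Ctsk_Macro, against 2001 and 280 in RTT, so neither population could be compared.

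Some names went against the marker genes of their cells, or covered more than 1 type, as for NK_cells below. Of the 94 RTT cells named Infl_Mono, the inflammatory monocytes, 45 held C1qa, a complement gene typical of macrophages, at 1000 CPM or more, against 145 of 620 in NTT. Of the 29 RTT neutrophils, 15 held C1qa at that level, against 13 of 91 in NTT. In Monocyte_1, 585 of 984 NTT cells and 44 of 99 RTT cells did so. In TAM_Spp1 the gene Spp1 itself stood at 167 CPM in NTT and at 3982 CPM in RTT, and C1qa at 1176 and 4641 CPM. The 4 listed markers of Spp1 macrophages (Spp1, Arg1, Thbs1 and Fn1) nevertheless summed to 7159 CPM in NTT and 6821 CPM in RTT. That NTT sum was the highest of any NTT population with at least 20 cells. The listed monocyte markers summed to 5162 and 799 CPM in TAM_Spp1. Results that rest on these populations are given with and without the C1qa cells.

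The 4 ligand genes lie side by side on chromosome 11 and within 81.2 kb in the GRCm38 (mm10) build, in the order Ccl2 (82035571 to 82037453), Ccl7 (82045712 to 82047525), Ccl11, Ccl12 (82101845 to 82103400) and Ccl8 (82115185 to 82116799), all on the plus strand. Ccr2 lies on chromosome 9 (124101950 to 124113557, plus strand). The longest run of bases shared by transcripts of the ligands was 23, between Ccl2 and Ccl7.

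RefSeq promoter windows, from 250 bases before to 50 after the start, were at hand for 3 of the 5 genes (Ccl8, Ccl12 and Ccr2). Those of Ccl12 and Ccl8 are shown because these neighbours, 11.8 kb apart, had log2 ratios of opposite sign in all macrophages, described further on. Only the ratio of Ccl8 was past 2-fold there. The windows, 5′ to 3′ on the plus strand of GRCm38.p6, cover chr11:82101595-82101894 and chr11:82114935-82115234, and capitals mark a match to TATAAA.
Ccl12: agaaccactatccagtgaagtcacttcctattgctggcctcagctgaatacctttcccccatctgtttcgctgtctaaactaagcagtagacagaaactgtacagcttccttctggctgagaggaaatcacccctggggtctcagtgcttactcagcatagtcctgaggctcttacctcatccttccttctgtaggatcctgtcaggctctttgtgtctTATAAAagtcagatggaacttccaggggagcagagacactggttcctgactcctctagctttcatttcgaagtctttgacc
Ccl8: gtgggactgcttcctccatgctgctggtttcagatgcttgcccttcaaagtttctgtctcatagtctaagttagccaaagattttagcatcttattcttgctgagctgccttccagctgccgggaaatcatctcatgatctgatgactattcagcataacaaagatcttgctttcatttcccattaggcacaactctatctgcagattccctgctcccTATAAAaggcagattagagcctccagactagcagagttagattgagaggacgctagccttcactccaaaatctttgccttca
TATAAA began at position -31 in the Ccl12 window and at -32 in the Ccl8 window, and 13.6% of all 32851 promoter windows hold it on either strand. The AP-1 letters TGANTCA (in 7.81% of windows), the interferon response core GAAANNGAA (8.56%), the STAT letters TTCNNNGAA (8.30%) and the NF-kB motif (6.93%) were searched on both strands and matched in neither window. Of these 5 motifs the Ccr2 window held the interferon response core alone.

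The receptor and its ligands followed different orders over the populations, with Macro in NTT high in both. Ccr2 was highest in TAM_Spp1 (1714 CPM in NTT and 1597 CPM in RTT), Macro (1678 and 1121 CPM), Monocyte_1 (1247 and 1294 CPM) and, in NTT, Infl_Mono (1570 CPM). After thinning, 89.5% of NTT and 88.2% of RTT TAM_Spp1 cells had a Ccr2 UMI. In NTT the interval of Macro (1583 to 1777 CPM) overlapped those of TAM_Spp1 (1635 to 1796 CPM) and Infl_Mono (1526 to 1614 CPM), which did not overlap each other, and that of Monocyte_1 (1218 to 1277 CPM) was lower. Ccr2 was lowest in NTT in DC3, the CCR7 dendritic cells (72.3 CPM), TAM_H2Ab1 (73.9 CPM) and TAM_cycling (83.2 CPM), whose intervals overlapped, and in RTT in Ctsk_Macro (67.6 CPM). Dendritic cells of the cDC2 type carried it at intermediate levels, 562 CPM in NTT and 445 CPM in RTT.

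Ccl2, Ccl7 and Ccl12 were highest in macrophages, apart from the RTT cells named Infl_Mono that are described further on. In NTT, TAM_H2Ab1 led with 1299 CPM of Ccl2, 1478 CPM of Ccl7 and 2599 CPM of Ccl12. NTT Macro, which also had more Ccr2 than Monocyte_1, held 1057, 1164 and 991 CPM of these genes, against 311, 358 and 276 CPM in the 26 RTT Macro cells. TAM_cycling, the dividing macrophages, held 943, 836 and 1697 CPM of the 3 genes in NTT and 1145, 1129 and 2198 CPM in RTT. TAM_C1q, the largest RTT population, held 1390 CPM of Ccl2, 1486 CPM of Ccl7 and 2990 CPM of Ccl12. Ctsk_Macro, which has osteoclast genes, was the lowest RTT macrophage population with 94.4, 75.0 and 190 CPM, although its interval for Ccl12 (177 to 204 CPM) overlapped that of Macro (203 to 367 CPM). In Monocyte_1 the 3 ligands stayed between 135 and 608 CPM in NTT and between 226 and 333 CPM in RTT, with Ccl12 the highest in both libraries.

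The cells named NK_cells, lymphocytes that are not a known source of these ligands, gave the background. Their summed NK cell markers stood at 10788 CPM in NTT and 5373 CPM in RTT and their T cell markers at 4212 and 3059 CPM, so the name covers T cells as well. Ccl2 and Ccl7 stood at 3.77 CPM each in NTT NK_cells, and Ccl8 and Ccl12 at 8.29 and 11.3 CPM. In the 51 RTT NK_cells the ligands stood between 67.8 CPM (Ccl8) and 358 CPM (Ccl12), and 4 of these cells held C1qa at 1000 CPM or more. In the other 47 the ligands stood between 9.20 and 24.5 CPM. After thinning, 3.05% of NTT and 9.76% of RTT NK_cells had a Ccl12 UMI, at median depths of 5358 and 3967 UMIs before thinning. The RTT share was not limited to the 47 cells, and the 4 cells with C1qa held 126 of the 132 Ccl12 UMIs before thinning. The cDC1 and cDC2 cells were low in the ligands, with none above 56.6 CPM in either library. That level was Ccl12 in NTT cDC1 (39.8 to 78.0 CPM), above the interval of NTT NK_cells (6.33 to 18.6 CPM). Ccl2 stood at 29.1 CPM (17.5 to 45.4) in NTT cDC1 and 14.7 CPM (9.48 to 21.6) in NTT cDC2, above 1.22 to 8.79 CPM. The other ligand intervals of NTT cDC1 and cDC2 overlapped those of NTT NK_cells. Ccr2 in NK_cells was 232 CPM in NTT and 296 CPM in RTT, and both NK and T cells can express it.

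**Figure D1:**
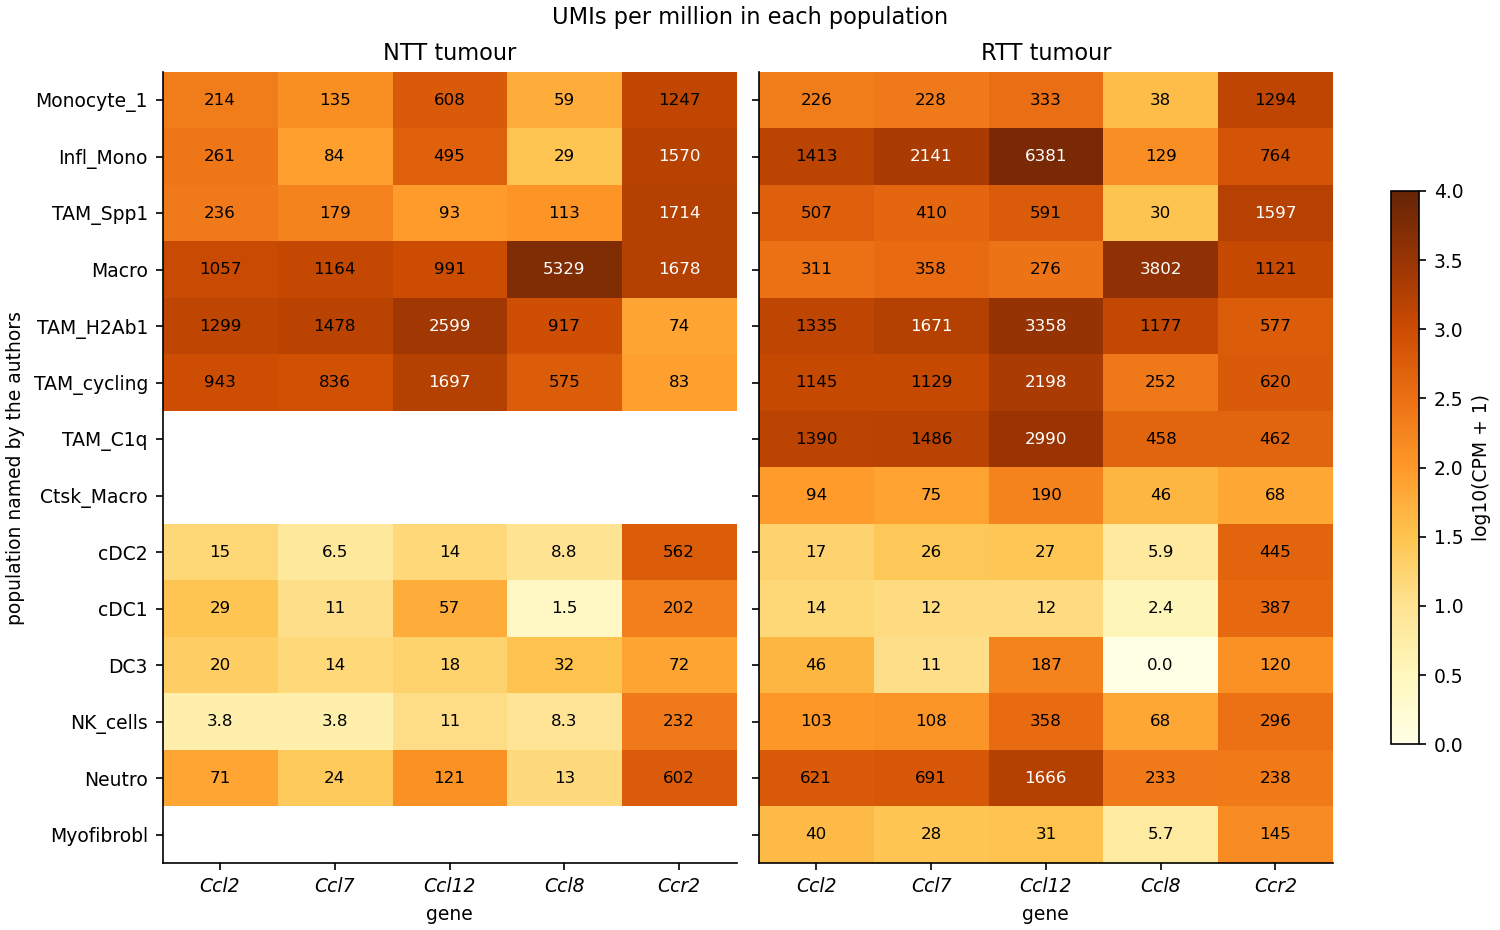
CPM of the 5 genes (columns) in each population with at least 20 cells (rows), NTT on the left and RTT on the right, with colour on a log10 scale and blank cells where a library had fewer cells. Ccr2 is dark in Monocyte_1, TAM_Spp1 and Macro, whereas Ccl2, Ccl7 and Ccl12 are dark in TAM_H2Ab1, TAM_cycling and TAM_C1q, and Ccl8 is darkest in Macro.

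Ccl8 followed another order than the other ligands. It was highest in Macro, at 5329 CPM in NTT and 3802 CPM in RTT, and next in TAM_H2Ab1 at 917 and 1177 CPM. In RTT TAM_C1q it stood at 458 CPM and in RTT TAM_Spp1 at 29.6 CPM. Its UMIs were also held by few cells. The 15 NTT cells with the most Ccl8 held as many of its UMIs as all the other cells, and 1 Macro cell held 673 of the 7852. In RTT it took 55 cells to reach that point. In NTT it took 454 cells for Ccr2, 89 for Ccl2, 72 for Ccl12 and 52 for Ccl7. The mean level of Ccl8 in a population was thus set by few cells, and leaving out the 10 cells with the most Ccl8 in each library took its ratio over all cells from -0.46 to -0.04 on the log2 scale.

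The populations that held the UMIs differed between the libraries. In NTT, TAM_H2Ab1 was 5.68% of cells and held 36.0% of Ccl2, 45.8% of Ccl7 and 38.1% of Ccl12 UMIs. In RTT, TAM_C1q was 41.3% of cells and held 58.1%, 59.8% and 60.3% of them, and TAM_cycling held 32.0%, 30.4% and 29.6%. Macro held 47.1% of NTT Ccl8 UMIs with 3.36% of cells, and TAM_C1q held 64.2% of RTT Ccl8 UMIs. The receptor's UMIs lay in Monocyte_1 (39.9%) and Infl_Mono (29.1%) in NTT. In RTT they lay in TAM_C1q (32.0%), TAM_cycling (28.7%) and TAM_Spp1 (26.4%).

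**Figure D2:**
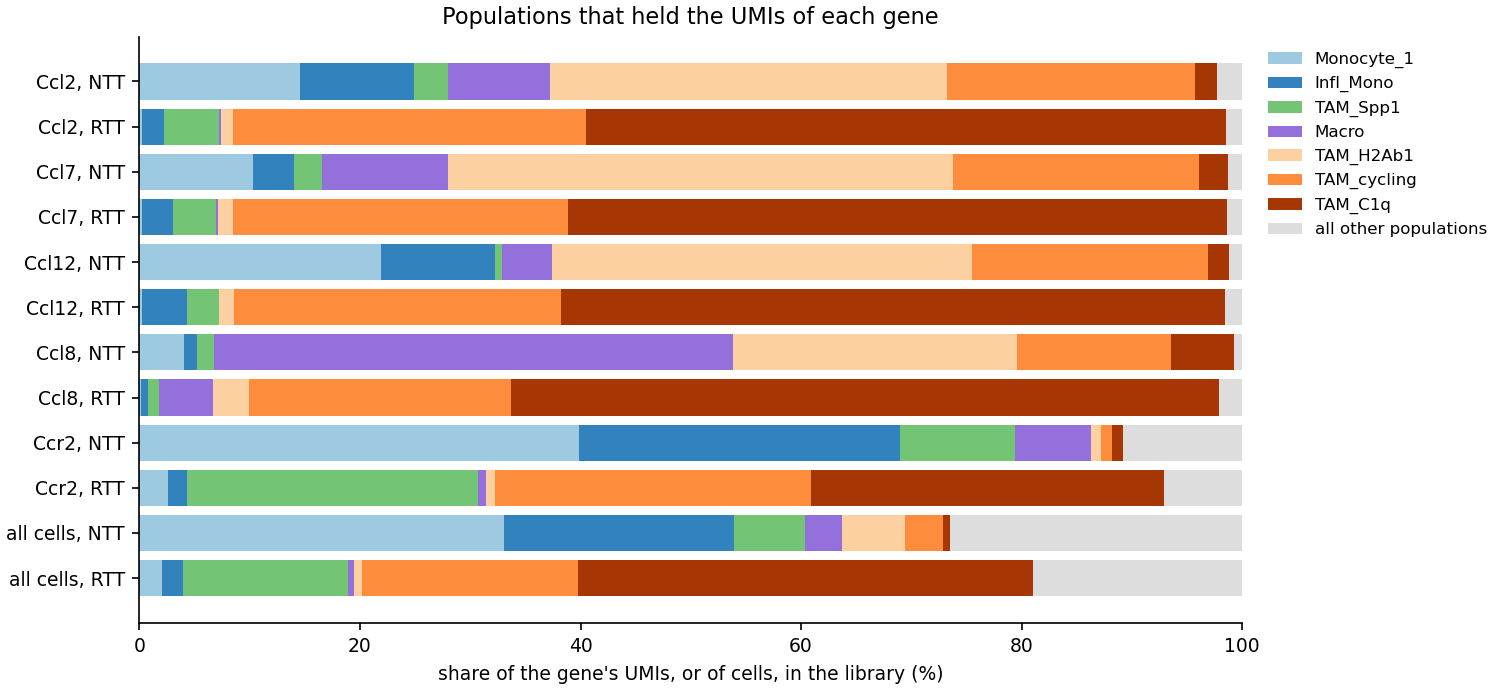
Share of each gene's UMIs, and of all cells at the bottom, that lay in each population, with 1 bar per gene and library and the x axis in percent of the library. Monocyte_1 and Infl_Mono hold most Ccr2 UMIs in NTT, whereas TAM_C1q and TAM_cycling hold most ligand UMIs in RTT.

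Over all cells, Ccl2, Ccl7 and Ccl12 were higher in the RTT than in the NTT library, and Ccl8 and Ccr2 were lower by less than 2-fold. Ccl2 stood at 405 CPM (396 to 414) in NTT and at 976 CPM in RTT, a log2 ratio of 1.27 (1.24 to 1.30). Ccl7 stood at 362 and 1013 CPM, a log2 ratio of 1.48 (1.45 to 1.52). Ccl12 stood at 767 and 2024 CPM, a log2 ratio of 1.40 (1.37 to 1.42). Ccl8 stood at 400 and 291 CPM, a log2 ratio of -0.46 (-0.50 to -0.42). Ccr2 stood at 862 and 589 CPM, a log2 ratio of -0.55 (-0.58 to -0.52). The libraries thus parted in opposite directions for 3 of the 4 ligands and for their receptor. Of the 8220 genes with at least 500 UMIs, 8.18% were 2-fold or more higher in RTT and 9.60% lower, and 3 of the 5 members were among the higher and 0 among the lower. In mixed cells, a different number of cells of a type and different RNA per cell cannot be told apart without the populations.

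After thinning, 48.0% of RTT and 21.1% of NTT cells had a Ccl2 UMI, and for Ccl12 the shares were 53.8% and 25.3%. Cells with UMIs of at least 2 of the 4 ligands were 50.3% of RTT and 17.5% of NTT cells. For Ccr2 the shares were 48.3% in RTT and 61.9% in NTT.

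The difference over all cells was split into the part from the populations' shares of UMIs and the part from levels within them, with the mean of both libraries as weights. Shares gave 372 of the 571 CPM difference of Ccl2 (65.1%), 354 of 651 CPM for Ccl7 (54.4%) and 400 of 1257 CPM for Ccl12 (31.9%). For Ccl2 the largest single part was the larger share of TAM_C1q (515 CPM), against which stood the smaller shares of TAM_H2Ab1 (-137 CPM) and Infl_Mono (-123 CPM). For Ccl12 the largest single part was also the larger share of TAM_C1q (1017 CPM). Infl_Mono gave 510 CPM by its level, which rests on the 94 RTT cells described above, and -505 CPM by its smaller share. The lower Ccr2 in RTT was -273 CPM, of which shares gave -151 CPM (55.2%). The smaller share of Monocyte_1 alone gave -336 CPM, and the larger share of TAM_C1q gave 342 CPM the other way. For Ccl8 both parts were larger than the difference of -109 CPM and opposed, 548 CPM from shares and -657 CPM within populations. The Ccl8 split rests on the level in the 17 NTT TAM_C1q cells and turned to -46.7 CPM from shares with NTT shares as weights. Ctsk_Macro was given its RTT level in both libraries, since NTT had none.

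In all macrophages (582 NTT and 4009 RTT cells), the summed CPM of Ccl2, Ccl7, Ccl12 and Ccr2 differed by at most 1.30-fold between the libraries. The log2 ratios were 0.15 (0.11 to 0.19) for Ccl2, 0.13 (0.09 to 0.17) for Ccl7, 0.38 (0.35 to 0.41) for Ccl12 and 0.06 (0.01 to 0.12) for Ccr2, which was -0.38 by the mean of per-cell CPM. Ccl12 was 0.81 by that mean and 0.86 with cells thinned to 1000 UMIs, and Ccl2 was 0.43 with cells thinned to 2000 UMIs. Ccl7 was 0.39 by the mean of per-cell CPM. After thinning to 2000 UMIs, 44.3% of NTT and 61.8% of RTT macrophages had a Ccl12 UMI. Ccl8 stood at 1238 CPM in NTT and at 325 CPM in RTT macrophages, a log2 ratio of -1.93 (-1.97 to -1.89). The NTT macrophages included 100 Macro cells and the RTT macrophages 26, and without them the Ccl8 value was -1.17.

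**Figure D3:**
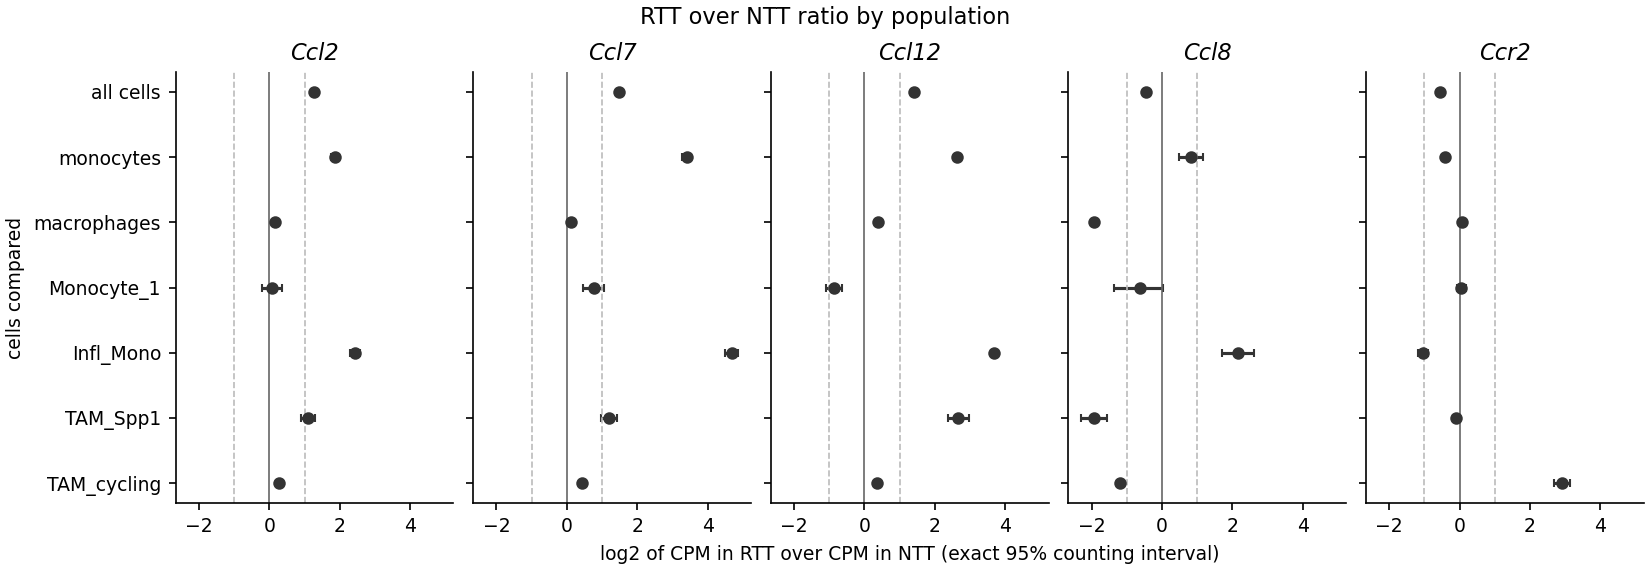
Log2 ratio of CPM in RTT over CPM in NTT for each gene (panels) over all cells, merged classes and the 4 monocyte and macrophage populations with at least 50 cells in each library, with exact 95% counting intervals and dashed lines at 2-fold. Ccl2, Ccl7 and Ccl12 lie right of 2-fold over all cells and in Infl_Mono and close to 0 in macrophages, and Ccr2 lies at 2.90 in TAM_cycling.

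In Infl_Mono the 4 ligands were higher and the receptor was lower in RTT. Ccl2 stood at 261 CPM in NTT and 1413 CPM in RTT (log2 ratio 2.44, 2.30 to 2.58). Ccl7 stood at 83.7 and 2141 CPM (4.68, 4.48 to 4.87). Ccl12 stood at 495 and 6381 CPM (3.69, 3.60 to 3.77), the highest level of any member in a population of at least 20 cells. Ccl8 stood at 28.9 and 129 CPM (2.16, 1.70 to 2.61), and Ccr2 at 1570 and 764 CPM (-1.04, -1.18 to -0.90). Of 4542 genes with at least 100 UMIs there, 6.21% were 2-fold or more higher and 9.64% lower, and 4 of the 5 members were higher and 1 lower.

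Cells with and without C1qa gave different ratios. In the 49 RTT Infl_Mono cells with C1qa under 1000 CPM, Ccl2 stood at 68.1 CPM (36.3 to 116), Ccl7 at 31.4 CPM (11.5 to 68.4), Ccl12 at 57.6 CPM (28.8 to 103) and Ccr2 at 1582 CPM (1409 to 1771). In the 45 RTT cells with more C1qa, Ccl2 stood at 2057 CPM, Ccl7 at 3153 CPM, Ccl12 at 9413 CPM and Ccr2 at 372 CPM. The 145 NTT cells of that kind held 386, 201, 1536 and 862 CPM of these genes, so that among C1qa cells the ligands were higher and Ccr2 lower in RTT. The NTT cells with less C1qa held 217 CPM of Ccl2, 43.2 CPM of Ccl7 and 137 CPM of Ccl12. Without the C1qa cells, the log2 ratios of Ccl2 (-1.67), Ccl7 (-0.46), Ccl8 (-2.0) and Ccl12 (-1.25) were below 0. These rest on 49 RTT cells with 13, 6, 1 and 11 UMIs of the 4 genes, under the minimum for a ratio, and the RTT intervals of Ccl7 and Ccl8 (0.133 to 29.2 CPM) include the NTT levels of 43.2 and 21.0 CPM. The RTT cells with a Ccl12 UMI also had 8728 CPM of C1qa and 359 CPM of the monocyte gene Plac8, against 391 and 6489 CPM in those without one. The median depth was 8063 UMIs in the 45 RTT cells with more C1qa and 3587 in the other 49, against 4984 and 4672 in NTT. Whether the 45 cells are macrophages, monocytes on their way to them or pairs of cells was not tested.

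**Figure D4:**
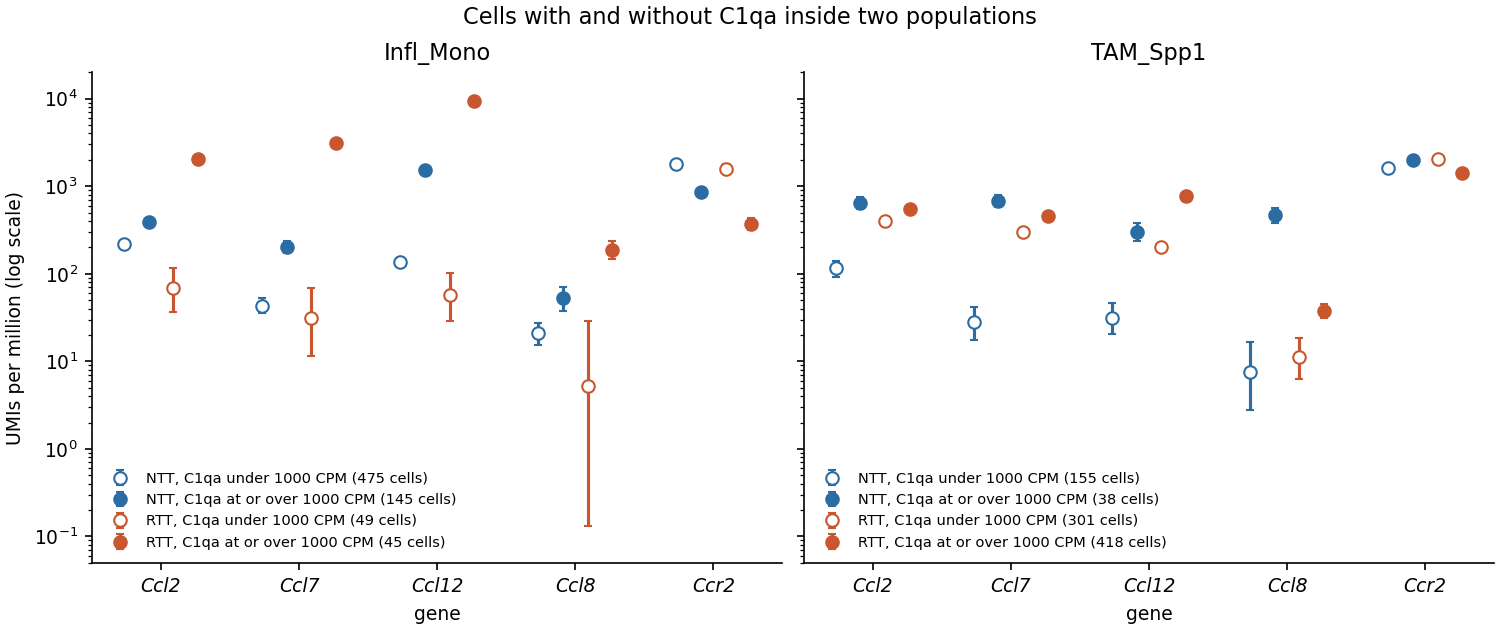
CPM (log axis) of the 5 genes in Infl_Mono (left) and TAM_Spp1 (right), split by library and by C1qa under (open) or at and over (filled) 1000 CPM per cell, with exact 95% Poisson intervals. In RTT Infl_Mono the filled points of Ccl2, Ccl7 and Ccl12 lie far above the open ones, and Ccr2 is the reverse.

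In Monocyte_1 (984 NTT and 99 RTT cells) no member was past 2-fold, beside 3.10% of 5810 genes higher and 11.6% lower. The log2 ratio of Ccr2 was 0.05 (-0.06 to 0.17) and that of Ccl2 was 0.08 (-0.20 to 0.36), both intervals including 0. Ccl7 was higher, 135 against 228 CPM (0.76, 0.47 to 1.04), and Ccl12 was lower, 608 against 333 CPM (-0.87, -1.10 to -0.65). Without the 10 cells with most UMIs of the gene in each library, Ccl7 turned to -1.14 and Ccl12 was -2.46. These 10 cells are a larger share of the RTT cells, of which 25 held a Ccl7 UMI against 132 in NTT. The step thus tends to lower the ratio by itself, and the turn cannot show whether the Ccl7 ratio is firm. Cells of this population with less C1qa had more receptor in both libraries, 1644 against 1035 CPM in NTT and 1519 against 1121 CPM in RTT. Without the C1qa cells, the log2 ratios were -0.61 for Ccl2, -2.44 for Ccl12 and -0.11 for Ccr2. They rest on 55 RTT cells, with 26, 14 and 347 UMIs of these genes. Ccl7 without the C1qa cells stood at 58.3 CPM (47.9 to 70.3) in NTT and 114 CPM (74.3 to 167) in RTT. Among the C1qa cells Ccl2 stood at 235 and 313 CPM, Ccl7 at 175 and 316 CPM and Ccl12 at 756 and 542 CPM.

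In TAM_Spp1 (193 NTT and 719 RTT cells) Ccl2, Ccl7 and Ccl12 were higher in RTT, Ccl8 was lower and Ccr2 was close to equal. Ccl2 stood at 236 and 507 CPM (1.10, 0.91 to 1.30), Ccl7 at 179 and 410 CPM (1.20, 0.98 to 1.42) and Ccl12 at 93.4 and 591 CPM (2.66, 2.37 to 2.97). Ccl8 stood at 113 and 29.6 CPM (-1.93, -2.30 to -1.56) and Ccr2 at 1714 and 1597 CPM (-0.10, -0.18 to -0.03). Here 13.3% of 5710 genes were 2-fold or more higher and 13.3% lower, and 3 members were higher and 1 lower. Cells with C1qa at 1000 CPM or more were 19.7% of this population in NTT and 58.1% in RTT. Among those cells Ccl2 (643 and 554 CPM) and Ccl7 (685 and 460 CPM) were not higher in RTT, whereas Ccl12 was (300 and 765 CPM). Among the cells with less C1qa all 3 were higher in RTT, at 115 and 401 CPM of Ccl2, 27.8 and 299 CPM of Ccl7 and 31.6 and 200 CPM of Ccl12. Ccl8 stood at 465 and 37.9 CPM in the C1qa cells and at 7.58 and 11.1 CPM in the others, and Ccr2 at 1989 and 1406 CPM and at 1633 and 2022 CPM. Without the 10 cells with most UMIs of the gene in each library, Ccl2 was 2.29, Ccl7 2.86 and Ccl12 3.49. These 10 cells are a larger share of the 193 NTT cells, so the step tends to raise the ratio by itself. The Ccl8 value turned to 0.96 without the 10 cells with the most Ccl8 in each library, with the same limit. It turned to 0.34 in cells with at least 1500 detected genes.

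In TAM_cycling (103 NTT and 947 RTT cells) the receptor was the gene that parted most among the members. Ccr2 stood at 83.2 CPM (70.8 to 97.3) in NTT and at 620 CPM (607 to 635) in RTT, a log2 ratio of 2.90 (2.67 to 3.13), and after thinning 10.7% of NTT and 52.9% of RTT cells had a UMI of it. The ratio was 4.06 with cells thinned to 1000 UMIs and 5.40 without the 10 cells with most Ccr2 in each library, which are a larger share of the NTT cells. Ccl2 (0.28), Ccl7 (0.43) and Ccl12 (0.37) were higher by less than 2-fold, and without the 10 cells with most UMIs of the gene Ccl7 was 1.18 and Ccl12 1.30. Ccl8 stood at 575 and 252 CPM (-1.19, -1.29 to -1.09), which turned to 0.29 without the 10 cells with the most Ccl8. For the ligands too, the 10 cells are a larger share of the NTT cells, which tends to raise the ratio by itself. Of 8219 genes, 5.49% were 2-fold or more higher and 4.70% lower, and 1 member was higher and 1 lower. The cycling markers Mki67, Top2a and Stmn1 summed to 1558 CPM in NTT and 2297 CPM in RTT, and C1qa stood at 8495 and 7820 CPM. In the C1qa cells alone, 100 in NTT and 915 in RTT, Ccr2 stood at 62.7 and 607 CPM. Other genes of the population also differed, such as the mannose receptor gene Mrc1 (372 and 1156 CPM), Spp1 (63.7 and 2110 CPM) and the MHC class II gene H2-Ab1 (4580 and 2440 CPM).

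Among the dendritic populations, Ccr2 alone passed the minimum of 100 UMIs in cDC2, with a log2 ratio of -0.34 (-0.46 to -0.21), beside 5.63% of 5135 genes higher and 7.05% lower. TAM_H2Ab1, with only 36 RTT cells, had Ccr2 at 73.9 CPM in NTT and 577 CPM (501 to 661) in RTT, and a Ccr2 UMI in 8.88% and 58.8% of thinned cells. Ccl2 there stood at 1299 and 1335 CPM. Neutrophils in RTT held 1666 CPM of Ccl12 and 621 CPM of Ccl2, against 121 and 70.6 CPM in NTT. The 14 RTT neutrophils without C1qa at 1000 CPM held 1 UMI of Ccl12 and 0 of Ccl2, which allows up to 82.4 CPM of Ccl2.

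Ccl2, Ccl7 and Ccl12 were found together in single cells of both libraries. In RTT TAM_C1q, 75.9% of cells with a Ccl2 UMI also had a Ccl7 UMI, against 34.4% of those without. For Ccl12 the shares were 86.7% and 61.6%. For Ccl8 they were 19.3% (17.3 to 21.6) and 14.9% (12.3 to 17.8), which overlap, and in NTT TAM_H2Ab1 29.3% and 35.8%. In RTT TAM_Spp1, Ccl7 was in 46.1% of cells with Ccl2 and in 9.68% of those without. In NTT TAM_H2Ab1 the shares for Ccl7 were 71.6% (62.4 to 79.5) against 54.7% (40.4 to 68.4), with overlapping intervals. All 4 ligands were found in 9.77% of thinned RTT TAM_C1q cells.

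Receptor and ligands were found apart in some populations only. In RTT TAM_cycling, 52.9% of cells with a Ccr2 UMI had a Ccl2 UMI, against 75.6% of those without. For Ccl12 the shares were 60.3% and 76.0%, and for Ccl8 they were 5.59% and 19.7%. In RTT TAM_C1q the split held for Ccl8, 6.03% against 25.2%, whereas the intervals for Ccl2 (60.3 to 67.2% and 65.2 to 70.5%), Ccl7 and Ccl12 overlapped. In RTT TAM_Spp1 the share with Ccl2 was 32.4% in cells with Ccr2 and 32.5% in cells without it. RTT Ctsk_Macro went the other way for Ccl12, found in 34.8% (16.4 to 57.3) of the 23 cells with Ccr2. Of those without Ccr2, 8.24% (5.17 to 12.3) had it, and the intervals for the other ligands overlapped there.

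Cells with and without a member were then compared for other genes, after thinning. In RTT TAM_C1q the genes with the largest ratio in Ccr2 cells were MHC class II genes, H2-Eb1 (1787 CPM with and 536 CPM without a Ccr2 UMI), H2-Aa (2385 and 761 CPM), H2-Ab1 (1965 and 688 CPM) and the invariant chain gene Cd74 (1955 and 727 CPM), followed by S100a4 (347 and 147 CPM). In RTT TAM_cycling, H2-Ab1 likewise stood at 3757 CPM with and 1133 CPM without a Ccr2 UMI, while Mki67 (462 and 424 CPM) and C1qa (6957 and 8626 CPM) were closer. Ccl8 cells were the reverse, with H2-Ab1 at 594 CPM in RTT TAM_C1q cells with a Ccl8 UMI and 1302 CPM in those without. In NTT Monocyte_1, cells with Ccr2 were richest in Ighm, Vcan, Arg1, Hp and Slfn4, with log2 ratios from 1.70 to 3.60, genes among which Vcan and Hp mark classical monocytes.

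In RTT TAM_C1q the cells with a Ccl2 UMI had more Ccl7 (1890 and 372 CPM), Ccl4 (361 and 90.0 CPM), the interferon-inducible chemokine gene Cxcl10 (72.6 and 20.1 CPM), the cholesterol 25-hydroxylase gene Ch25h (163 and 72.2 CPM) and Ccl12 (3470 and 1558 CPM). Cells with Ccl7 had the same genes at the top, with Ccl2 in place of Ccl7. Cells with Ccl12 had Cxcl10 (67.6 and 9.22 CPM) and Isg15 (85.8 and 33.4 CPM) among their 5. Cells with Ccl8 had others, Npl (472 and 166 CPM), Cbr2 (653 and 251 CPM), C4b (187 and 76.6 CPM), Ccl5 and Cela1. In NTT Macro, Ccl8 cells were richest in Pf4 (5833 and 1426 CPM), Arg1, Ctsb, Maf and Dab2.

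Binned by their C1qa, C1qb and C1qc UMIs after thinning, monocytes and macrophages parted for ligands and receptor. In NTT, 13.3% of cells with no C1q UMI and 49.7% of cells with 10 or more had a Ccl12 UMI, and in RTT the shares were 9.26% and 70.2%. For Ccl7 they were 3.52% and 26.1% in NTT, and 7.08% and 55.2% in RTT. Ccr2 was found in 89.0% of NTT cells with no C1q UMI and in 58.1% of those with 10 or more. In RTT, where the 280 Ctsk_Macro cells enter the bins, it was found in 56.4% and 48.2%. Cells with 3 to 9 C1q UMIs were nearer to those with none, with Ccl12 in 20.7% of them in NTT and 14.9% in RTT.

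**Figure D5:**
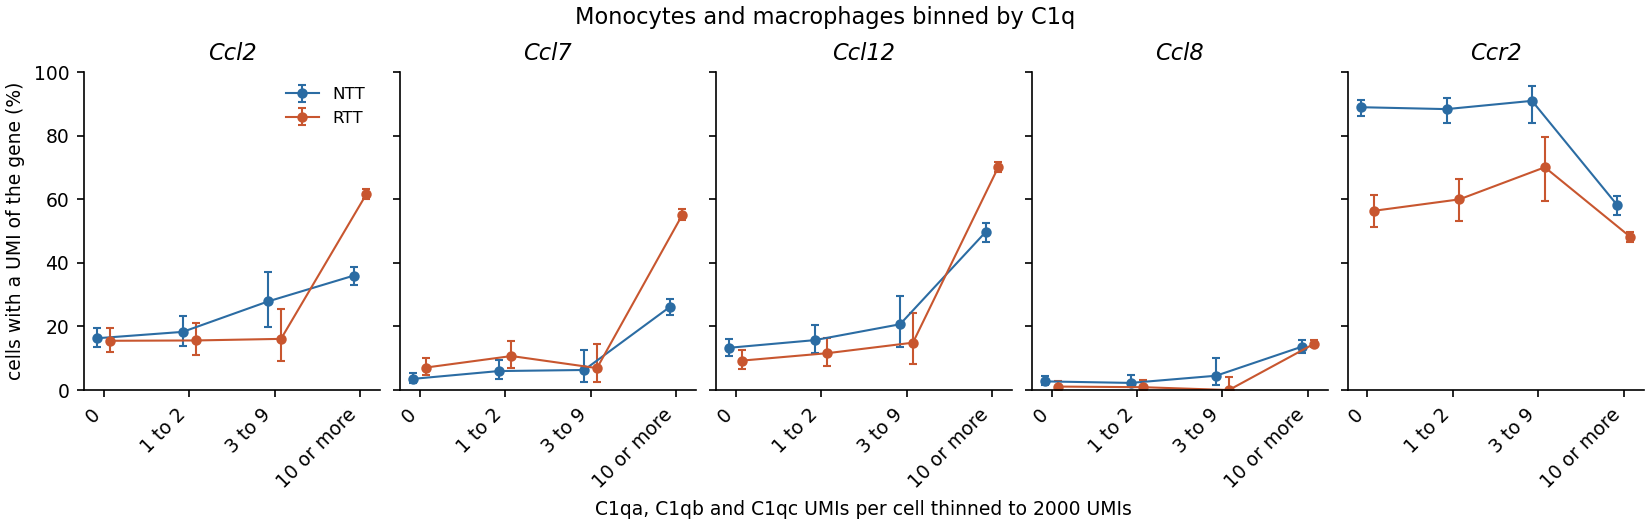
Share of thinned monocytes and macrophages with a UMI of each gene (y axis, percent) by the number of C1q UMIs per cell (x axis), NTT in blue and RTT in orange, with exact Clopper-Pearson 95% intervals. The ligand shares are highest at 10 or more C1q UMIs, at 70.2% for Ccl12 in RTT, and that of Ccr2 is lowest there.

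Binned by UMIs of 4 interferon-stimulated genes (Isg15, Ifit3, Irf7 and Rsad2), the ligands did not follow each other. In NTT, Ccl8 stood at 960 CPM in cells with no such UMI and at 84.1 CPM in those with 10 or more, and Ccl7 at 470 and 143 CPM, whereas Ccl12 stood at 536 and 779 CPM. By share of cells Ccl8 was found in 10.8% and 4.86% of them, and the bins mix populations. In RTT, Ccl8 stood at 266 CPM in cells with none, 760 CPM in those with 3 to 9 and 49.2 CPM in those with 10 or more. In RTT, Ccl12 stood at 1880 CPM in cells with none and at 6287 CPM in the 61 cells with 10 or more, and Ccl7 at 995 and 2008 CPM. By share of these RTT cells, Ccl12 was found in 60.1% (58.5 to 61.8) and 72.1% (59.2 to 82.9). Ccl7 was found in 46.8% and 52.5% (39.3 to 65.4), and the intervals of both genes overlapped. In NTT the shares for Ccl12 were 28.6% (24.2 to 33.3) and 35.5% (31.5 to 39.7), which also overlap, and for Ccl7 23.3% and 8.04%. Ccr2 stood at 1494 and 1221 CPM in NTT and at 756 and 525 CPM in RTT.

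Over the 21 library and population profiles with at least 50 cells, the genes most like Ccl2 in log2(CPM + 1) were Ccl7 (Pearson r = 0.97), C1qc (0.97), C3ar1, Ms4a7 and C1qa (0.96 each). Those most like Ccl12 were Ccl2 (0.96), Ms4a7, C1qc, C1qa and C1qb, and those most like Ccl7 were Ccl2, Adgre1, Ms4a14, Ms4a7 and C3ar1. Ccl8 was most like Sept8 and C4b (0.88 each), Etv5, Cltc and Srgap2. Ccr2 was most like Ltb4r1 and Emb (0.85 each), Lyl1, Rara and Bst1, and its r with the ligands lay between 0.14 and 0.26. Profiles of 1 library share depth and free RNA, so these values are a description.

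Other CC chemokine ligands went mostly the other way over all cells. Of the 9 with at least 500 UMIs, Ccl24 (-2.96 on the log2 scale), Ccl3 (-2.19), Ccl6 (-1.87), Ccl4 (-1.47) and Ccl5 (-1.44) were 2-fold or more lower in RTT, and Ccl17, found mostly in cDC2, was higher (2.59). Their median was -1.44, beside 0.10 over all genes, of which 9.60% were 2-fold or more lower and 8.18% higher. Of 3 related receptors Ccrl2, which binds chemerin, was lower (-2.15), whereas Ccr1 (0.25), a receptor that CCL7 can also bind, was within 2-fold. Ccl11, which lies inside the cluster, was at or under 0.453 CPM in every population.

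Of 9 monocyte adhesion and homing genes 7 were 2-fold or more lower in RTT and 0 higher, with a median of -1.15. Of all genes with at least 500 UMIs over all cells, 9.60% were lower and 8.18% higher by that measure. The integrin gene Itgal stood at 125 CPM in NTT and 17.2 CPM in RTT (-2.86), and Cd44 (-1.36), Itgb2 (-1.16) and Selplg (-1.15) followed. Inside Monocyte_1, 2 of 9 were lower, with a median of -0.39, beside 11.6% of all genes there. Inside TAM_Spp1, 5 of 9 were lower, with a median of -1.38, beside 13.3% of all genes there. Of 16 genes of CCR2 signalling, Jak2 alone was past 2-fold (157 and 39.1 CPM), and the median was -0.27. Of 5 genes for monocyte growth factors and their receptors, Csf1 (-3.06) and Csf2rb (-1.02) were lower, and Csf1r, the receptor of macrophages, stood at 435 and 767 CPM (0.82).

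Of 21 genes that regulate these ligands, inducers and inhibitors alike, 9 were 2-fold or more lower in RTT and 0 higher, with a median of -0.91. Of all genes over all cells, 9.60% were lower and 8.18% higher. Among the 9 were Irf7 (-3.23), Irf1 (-2.30), the NF-kB cofactor gene Nfkbiz (-1.96) and Zfp36 (-1.61), which encodes an mRNA decay factor. The 9 also held the inhibitor genes Nfkbia (-1.10), which encodes an inhibitor of NF-kB, and Zc3h12a (-1.12), which encodes an RNase, both named after their values were seen. Inside TAM_Spp1, where Ccl2, Ccl7 and Ccl12 were higher in RTT, 12 of the 21 were lower, with a median of -1.18, beside 13.3% of all genes. Inside Monocyte_1, 4 were lower, with a median of -0.61, beside 11.6% of all genes.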

How the data were processed

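Both libraries were made by the authors with 10x 3′ chemistry and processed with Cell Ranger 6.1.1 on mm10, per the labels. The deposited matrix holds raw UMI counts per gene, restricted by the authors to genes shared by several experiments and without ribosomal and mitochondrial genes. The deposited cell table gives library and population names. No column of another sample was present (0 left unused).

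Counts were summed per library and population in Python 3.11.15 (scipy 1.17.1) and scaled to CPM (counts per 1e6 UMIs), with exact Poisson, Clopper-Pearson and binomial intervals, and no test was run. Ratios needed 50 cells in each library, and a ratio was called at 2-fold with at least 500 UMIs over all cells or 100 in a population. A count of 0 was read as allowing 3 UMIs. Ratio code was tested on simulated data. Named were the members, list genes past 2-fold (up to 5 each way), the 5 genes most alike in profile and the 5 richest in cells with a member, among genes with 200 thinned UMIs. Other genes given as levels were chosen after their values were seen. Members and lists were chosen with earlier results of these data known. Scrublet (scanpy 1.11.5) marked 0 cells of either library, so doublets were not removed. Scaling alternatives used edgeR 4.0.16 and DESeq2 1.42.0. A few list genes past 2-fold and 1 note on shared transcript sequence are not reported here.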

Additional observations from a re-analysis of the deposited data

Results flagged for a closer look

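A pair of members went 2-fold or more in opposite directions in different populations. Ccr2 was lower in RTT Infl_Mono (log2 ratio -1.04) and higher in RTT TAM_cycling (2.90). Ccl8 was higher in RTT Infl_Mono (2.16) and lower in TAM_Spp1 (-1.93) and TAM_cycling (-1.19). With 1 library per group the difference between populations was not tested. Each Ccl8 value turned its sign under at least 1 alternative, and the Ccr2 value in Infl_Mono was -0.20 without the cells with C1qa at 1000 CPM or more.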

How the results depend on the processing

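No paired analysis was possible because each group held 1 library and the groups share only 1 replicate number, and no replicate could be left out for the same reason. Over all cells Ccl2, Ccl7 and Ccl12 stayed 2-fold or more higher in RTT and Ccr2 lower in all the alternatives run, and only for Ccl8 did the sign turn, to 0.34 without Macro. Values below are log2 ratios of RTT over NTT over all cells that moved beyond their counting interval. TMM and DESeq2 scaling gave 1.24 for Ccl2, 1.37 for Ccl12 and -0.58 for Ccr2. The mean of per-cell CPM gave 1.66 for Ccl2, 2.10 for Ccl7, -0.26 for Ccl8, 1.85 for Ccl12 and -0.58 for Ccr2. Cells thinned to 2000 UMIs gave 1.65, 2.09, -0.25, 1.80 and -0.59 in the same order, and to 1000 UMIs 1.64, 2.06, -0.20, 1.87 and -0.58. Cells with at least 1500 genes gave 1.22 for Ccl2, 1.41 for Ccl7, -0.55 for Ccl8 and 1.32 for Ccl12. Without the 5% of cells with most UMIs the values were 1.67 for Ccl2, 1.97 for Ccl7, -0.26 for Ccl8, 1.80 for Ccl12 and -0.69 for Ccr2. Without the 10 cells with most UMIs of the gene they were 1.45 for Ccl2, 1.73 for Ccl7, -0.04 for Ccl8 and 1.58 for Ccl12. Without C1qa cells under other names they were 1.12, 1.27, -0.75, 1.43 and -0.48 for Ccl2, Ccl7, Ccl8, Ccl12 and Ccr2.

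Further alternatives were chosen after seeing the data. Without Macro, Ccl2 was 1.36, Ccl7 1.61 and Ccr2 -0.50. In monocyte and macrophage populations alone, Ccl2 was 1.0, Ccl7 1.20, Ccl8 -0.75, Ccl12 1.12 and Ccr2 -0.77. Without the 6% of cells with the highest doublet score, Ccl8 was -0.51, Ccl12 1.36 and Ccr2 -0.51. Of 490 values within populations, 34 turned their sign, of which 24 were not past 2-fold or not over the minimum to begin with and 10 were. Without C1qa cells this was so in monocytes for Ccl2 (-1.11) and Ccl12 (-1.96), and in Infl_Mono for Ccl2 (-1.67), Ccl7 (-0.46), Ccl8 (-2.0) and Ccl12 (-1.25). Ccl8 in TAM_Spp1 turned to 0.34 in cells with at least 1500 genes and to 0.96 without its top 10 cells. In TAM_cycling it turned to 0.09 without the 5% of cells with most UMIs and to 0.29 without its top 10 cells. In both populations the top 10 cells are a larger share of the NTT cells, which tends to raise the ratio by itself. The part of the difference from population shares, in CPM, was 390 for Ccl2, 472 for Ccl7, 1142 for Ccl8, 615 for Ccl12 and -74.1 for Ccr2 with RTT shares as weights. With NTT shares it was 354, 236, -46.7, 186 and -228. The causes were not tested.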

Other observations

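DC3, the CCR7 dendritic cells, held 14 UMIs of Ccl12 in NTT (17.8 CPM, 9.70 to 29.8) and 53 in RTT (187 CPM, 140 to 245), and 25 UMIs of Ccl8 in NTT against 0 in RTT. Both genes were under the minimum of 100 UMIs for a ratio. Without the 6% of cells with the highest doublet score in each library, the log2 ratio of Ccl12 in DC3 was 4.50 against 3.40 with all cells and 2.05 with cells thinned to 1000 UMIs, and that of Ccl12 in NK_cells was 0.91 against 4.99. Ccr2 in cDC1 stood at 202 CPM (169 to 239) in NTT and 387 CPM (330 to 452) in RTT, in 78 and 56 cells.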
